A study of Homo sapiens with 12 samples.

Results

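The genes of the PDGF and VEGF families were followed in MDA-MB-231 cells, an established human line of triple-negative breast cancer (TNBC), that carried either the unedited glucocorticoid receptor (wt-GR) or a receptor with the S134A substitution of serine by alanine (S134A-GR). The members were taken by gene symbol, as ligands and receptors of these families, and make up 9 of the 19907 symbols in the data. They are the ligands PDGFA, PDGFB, PDGFC and PDGFD, the receptors PDGFRA and PDGFRB, and the ligands VEGFA, VEGFB and VEGFC. RNA-seq libraries fall into 4 groups of 3 replicates: wt-GR cells under vehicle, wt-GR cells under TGFβ1, S134A-GR cells under vehicle and S134A-GR cells under TGFβ1. Before treatment all cells were starved for 18 h in medium with 1% DCC (charcoal-stripped serum), and TGFβ1 was given at 10 ng/mL for 6 h. The wt-GR cells were a clone from the CRISPR-treated population that had kept the unedited gene, and the S134A-GR cells were clone #1 with the edit on both alleles. Each line is therefore 1 clone, and the edit and other differences between the clones cannot be told apart. The labels do not say that replicates came from separate cultures, so p-values measure the spread between these libraries, which may be technical. Values are normalized counts, that is, reads per gene divided by a size factor of the library. The reads recovered from them ranged from 56.4 to 129.8 in units of 1e6 per library, with replicate 1 of wt-GR cells under vehicle the smallest at 56.4. Their mean of 93.5 is above the average of 40 given for these samples by the authors, and the gap was not resolved. In these bulk libraries, fewer cells with a transcript and less of it in each cell cannot be told apart.

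PDGF ligands are secreted dimers that bind the receptor tyrosine kinases PDGFRα and PDGFRβ, and they are known as growth and migration signals for fibroblasts, pericytes and smooth muscle cells. PDGFA and PDGFB are cut inside the cell by furin-type proteases, whereas PDGFC and PDGFD are secreted as latent factors that plasminogen activators and related proteases activate outside it. VEGFA is the main growth signal for blood vessel endothelium, VEGFC is best known for growth of lymphatic vessels, VEGFB is a related ligand of the receptor FLT1, and carcinoma cells commonly secrete such ligands towards vessels and stroma.

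The labels were first set against genes with known behaviour. VIM, which mesenchymal-like TNBC lines express at high levels, had 422927 ± 3379 normalized counts (SD, n = 3) in the wt-GR line under vehicle. ESR1, the estrogen receptor gene, averaged 0.702, below the level of 3 reads, which was 2.15 to 4.89 normalized counts depending on the library. ERBB2, which encodes HER2, had 8891 ± 35.0 and the epithelial gene EPCAM had 1024 ± 64.6 normalized counts, which are not near that level, and PGR was not in the data. NR3C1, the edited gene, was lower in the S134A-GR line by a log2 fold change of −0.41 under vehicle and −0.31 under TGFβ1. The edit is a substitution, so the level of NR3C1 does not check it.

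Levels of different genes were compared as normalized counts per kb of the canonical transcript of GENCODE v44. In the wt-GR line under vehicle VEGFA was highest, at 5415 ± 319 per kb (SD, n = 3), followed by VEGFB at 2292 ± 218 and PDGFC at 2203 ± 46.9, whose replicates overlapped. VEGFC at 1474 ± 68.4, PDGFA at 745 ± 35.9 and PDGFRB at 376 ± 6.30 per kb came next, each separate from its neighbours in the order. PDGFD at 166 ± 12.8 and PDGFB at 142 ± 20.8 overlapped, and PDGFRA was lowest at 2.33 ± 0.695 per kb. Under TGFβ1 PDGFB moved up to the fifth place in the wt-GR line, at 1003 ± 29.2 per kb, above PDGFA at 929 ± 22.0. In the S134A-GR line under TGFβ1 it took the sixth place at 399.7 ± 19.2 per kb, where its replicates overlapped those of PDGFRB at 379.9 ± 20.8. VEGFA stayed at the top and PDGFRA at the bottom in all 4 groups.

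**Figure D1:**
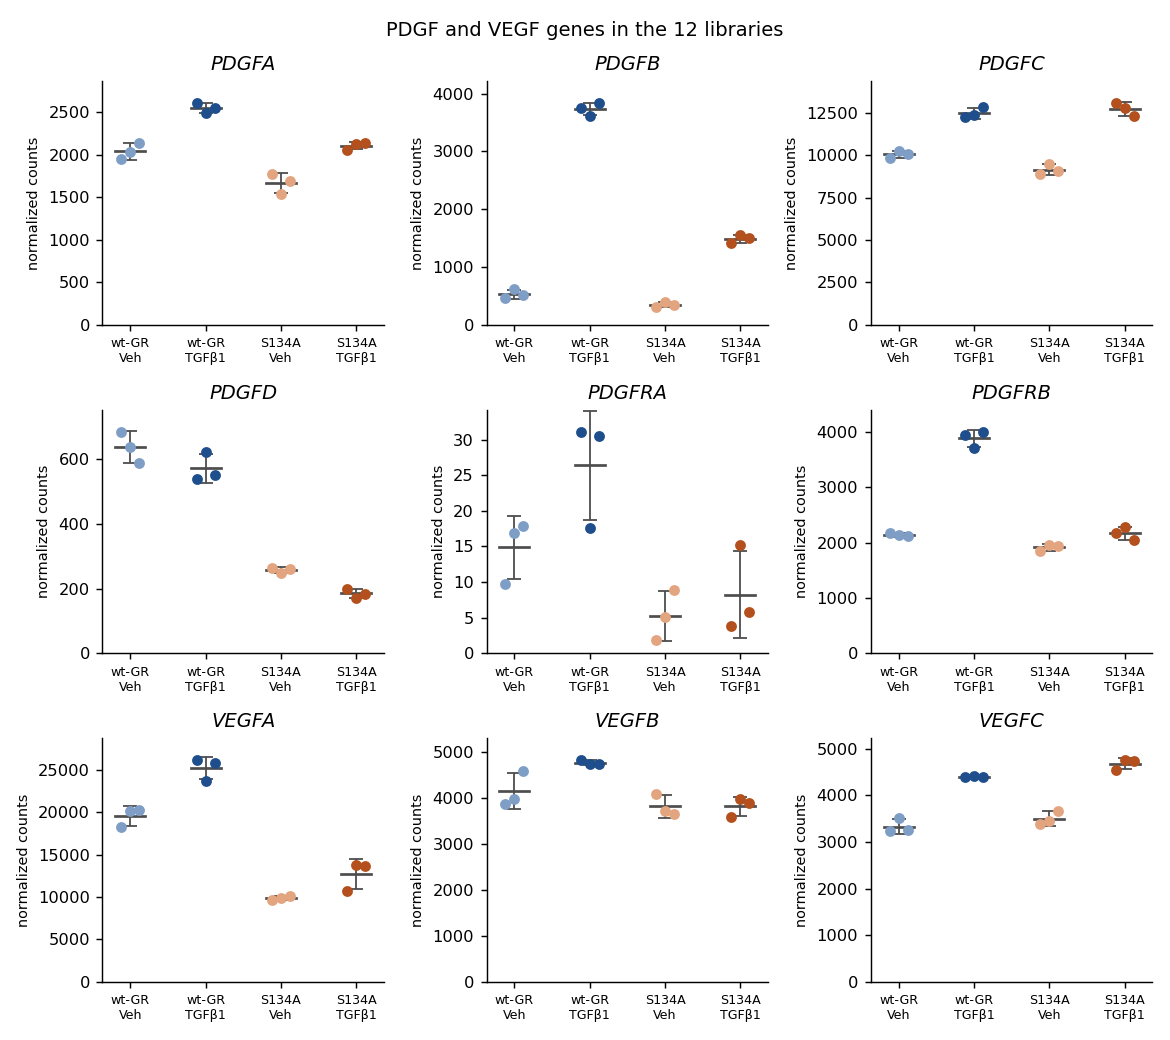
Normalized counts of the 9 genes in the 12 libraries, where points are libraries, horizontal lines are group means and bars are the SD of 3 replicates on axes that start at 0. PDGFB and PDGFRB are highest in the wt-GR line under TGFβ1, and VEGFA and PDGFD are lower in the S134A-GR line under both treatments.

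Most members were lower in the S134A-GR line and most rose with TGFβ1. Tests used limma, on values of log2 (normalized count + 1), over 18579 genes with at least 10 reads in the 12 libraries together, and a gene was called at an FDR under 0.05. All 9 members passed that filter. They were chosen with earlier results of these data known, so counts above the share of all genes are descriptions and no evidence about the families. Under vehicle 7 of the 9 were called between the lines, all of them lower in the S134A-GR line, where 51.5% of all genes tested were called, 25.0% higher and 26.5% lower. At a fold cutoff of 1 on the log2 scale, in either direction, there were 2 of 9, against 9.51% of all genes. Under TGFβ1 the count was also 7 of 9, all lower in the S134A-GR line, against 48.8% of all genes, 23.1% higher and 25.7% lower. At the fold cutoff there were 4 of 9, against 8.46%. With a pseudocount of 16, 1 member and 940 genes passed the fold cutoff under vehicle, against 1767 genes at a pseudocount of 1, and 2 members and 805 genes under TGFβ1, against 1571. With only the groups compared in the fit 1 member passed it under vehicle. The count of members at the fold cutoff also dropped to 1 under vehicle without replicate 2 or 3 of the wt-GR line or replicate 1 or 2 of the S134A-GR line, and to 2 under TGFβ1 without replicate 1 or 3 of the wt-GR line or replicate 1 of the S134A-GR line.

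With TGFβ1 in the wt-GR line 7 of the 9 members rose, where 21.0% of all genes were called, 11.2% up and 9.82% down, and 1 of 9 passed the fold cutoff, against 2.29%. In the S134A-GR line 6 rose and 1 fell, where 18.7% of all genes were called, 10.0% up and 8.69% down, and 1 of 9 passed the fold cutoff, against 1.66%. The difference between the responses, S134A-GR minus wt-GR, was called for 1 of 9 members, PDGFRB, with a negative difference, against 0.414% of all genes, 0.167% positive and 0.248% negative. The 77 genes behind that share were 211 by DESeq2. With 1 library left out they numbered 27 and 166 (replicates 2 and 3 of the wt-GR line, vehicle), 22, 36 and 35 (its replicates 1, 2 and 3, TGFβ1), 37, 39 and 38 (replicates 1, 2 and 3 of the S134A-GR line, vehicle) and 51 and 47 (its replicates 2 and 3, TGFβ1). The count of members was 2 by edgeR and by DESeq2, and by limma with the replicate number fitted as a block. It was also 2 by limma without replicate 2 of the wt-GR line or replicate 1 of the S134A-GR line, both under vehicle. At the fold cutoff the count was 0 of 9 by limma, against 0.0592% of all genes, and it was 0 by edgeR and by DESeq2 as well. Without adjustment, limma's p was under 0.05 for 5 of the 9 differences in response, against 1728 of the 18579 genes. Of these 5, 4 were negative and that of PDGFC was positive (0.17), and 0 had a size of at least 1. The median log2 fold change of the members was −0.29 under vehicle and −0.84 under TGFβ1 between the lines, against 0.02 and 0.01 for all genes. It was 0.37 with TGFβ1 in the wt-GR line and 0.35 in the S134A-GR line, against 0.00 and −0.01 for all genes. The comparisons share groups of libraries, so these counts are not independent of each other.

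**Figure D2:**
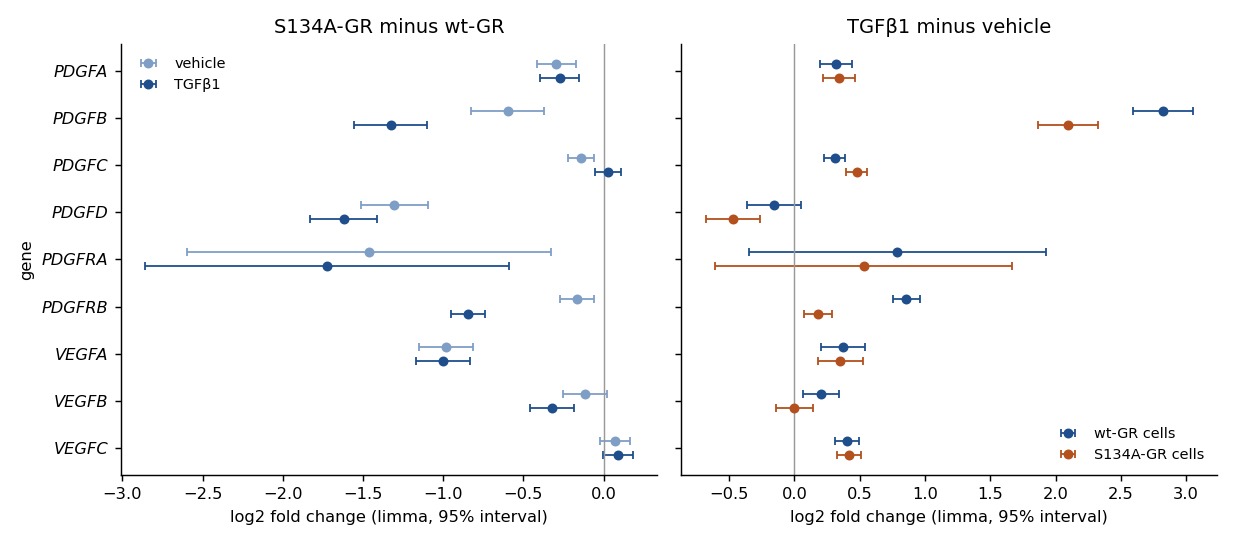
Log2 fold changes of the 9 genes by limma, with 95% intervals as bars, for S134A-GR minus wt-GR under each treatment (left) and TGFβ1 minus vehicle in each line (right). In the right panel the intervals of the lines lie apart for PDGFRB and PDGFB, with the lower value in the S134A-GR line, and for PDGFC, with the higher value there, and PDGFB has the largest values, 2.82 and 2.09. The tested difference between the responses passed for PDGFRB and missed the threshold for PDGFB (adjusted p = 0.0577 by limma) and PDGFC (0.315).

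PDGFB, which encodes the ligand that binds both PDGF receptors, responded most to TGFβ1. It is encoded on chromosome 22 (chr22:39223359-39244982 of GRCh38, minus strand). In the wt-GR line the replicates had 459, 613 and 519 normalized counts under vehicle and 3757, 3620.5 and 3835 under TGFβ1. In the S134A-GR line they had 301, 400.4 and 350.1 under vehicle and 1412, 1553 and 1504 under TGFβ1. Every library under TGFβ1 was above every vehicle library of either line, and wt-GR libraries were above S134A-GR libraries under both treatments. The mean rose 7.05-fold in the wt-GR line (log2 fold change 2.82, standard error 0.106, adjusted p = 2.08e-10 by limma) and 4.25-fold in the S134A-GR line (log2 fold change 2.09, adjusted p = 6.04e-09). Between the lines the log2 fold change was −0.60 under vehicle (adjusted p = 0.000288 by limma) and −1.33 under TGFβ1 (adjusted p = 1.71e-07).

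The difference between the responses of PDGFB, S134A-GR minus wt-GR, was −0.73 on the log2 scale (95% interval −1.05 to −0.41), which missed the threshold by limma (adjusted p = 0.0577) and in 16 of the 21 alternatives. It passed on the recovered reads by edgeR's quasi-likelihood test (adjusted p = 0.0442) and by DESeq2 (adjusted p = 4.89e-05), within a range of 4.89e-05 to 0.188 over the alternatives run. By limma it also passed with the replicate number fitted as a block (−0.73, adjusted p = 0.0347). It passed by limma without replicate 2 of the wt-GR line under vehicle (−0.84, adjusted p = 0.0405). The same held without replicate 1 of the S134A-GR line under vehicle (−0.84, adjusted p = 0.0361).

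PDGFA encodes a ligand that acts through PDGFRα, and its gene lies on chromosome 7 (chr7:497258-520296, minus strand). Its replicates had 1949, 2032 and 2145 normalized counts in the wt-GR line under vehicle and 2608, 2488 and 2547 under TGFβ1. The S134A-GR replicates had 1770.1, 1535 and 1696 under vehicle and 2058, 2125 and 2143 under TGFβ1. The treated libraries were above the vehicle libraries in each line, and S134A-GR libraries were below wt-GR libraries under both treatments, without overlap. PDGFA rose with TGFβ1 by a log2 fold change of 0.32 in the wt-GR line (adjusted p = 0.000914 by limma) and 0.34 in the S134A-GR line (adjusted p = 0.000609). It was lower in the S134A-GR line by −0.29 under vehicle and −0.27 under TGFβ1, and the difference between the responses had an interval of −0.15 to 0.19.

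PDGFC, a ligand with a CUB domain that acts mainly through PDGFRα, was the most abundant PDGF ligand per kb in each group. It is encoded on chromosome 4 (chr4:156760454-156971799, minus strand). Its replicates had 9838, 10263 and 10102 normalized counts in the wt-GR line under vehicle and 12232, 12376 and 12820.3 under TGFβ1. S134A-GR libraries had 8885, 9506 and 9045 under vehicle and 13073, 12807 and 12292 under TGFβ1. The vehicle libraries of the S134A-GR line were lowest, and under TGFβ1 the lines overlapped. PDGFC rose by a log2 fold change of 0.31 in the wt-GR line (adjusted p = 2.99e-05 by limma) and 0.48 in the S134A-GR line (adjusted p = 5.18e-07). The difference between these responses was 0.17 (interval 0.05 to 0.28) and missed the threshold (adjusted p = 0.315 by limma). Between the lines the difference under vehicle was −0.14 (adjusted p = 0.00593), and with quantile normalization it missed the threshold (−0.07, adjusted p = 0.131, in a range of 0.00182 to 0.131 over the alternatives). Under TGFβ1 it was 0.03 with an interval of −0.05 to 0.11.

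PDGFD, a CUB-domain ligand of PDGFRβ, was the only member with a called fall under TGFβ1, in the S134A-GR line. Its locus is on chromosome 11 (chr11:103907189-104164379, minus strand), and DDI1, a gene on the opposite strand, shares exon bases with it in the annotation. Since the strand setting of the counting is not given in the sources used here, reads of the pair cannot be told apart. The replicates of PDGFD had 684, 638 and 586 normalized counts in the wt-GR line under vehicle and 539, 622 and 552 under TGFβ1. Those of the S134A-GR line had 263, 246 and 261 under vehicle and 199.7, 171 and 185 under TGFβ1. All S134A-GR libraries were below all wt-GR libraries, and within the S134A-GR line the treated libraries were below the vehicle libraries. Between the lines the log2 fold change was −1.30 under vehicle (adjusted p = 7.53e-08 by limma) and −1.62 under TGFβ1 (adjusted p = 9.95e-09). With TGFβ1 it fell by 0.47 on the log2 scale in the S134A-GR line (adjusted p = 0.00323 by limma), against −0.16 in the wt-GR line (adjusted p = 0.302), and the difference between these responses missed the threshold (−0.32, adjusted p = 0.507).

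The makeup of the PDGF ligand transcripts shifted towards PDGFB under TGFβ1. Per kb, PDGFB made up 3.89%, 4.96% and 4.24% of the summed PDGFA, PDGFB, PDGFC and PDGFD levels in the wt-GR line under vehicle and 21.1%, 20.5% and 21.0% under TGFβ1. In the S134A-GR line its share was 2.94%, 3.82% and 3.40% under vehicle and 9.37%, 10.3% and 10.3% under TGFβ1. The shares under TGFβ1 lay above those under vehicle in both lines and did not overlap between the lines. PDGFC made up 67.7% ± 0.362 (SD, n = 3) in the wt-GR line given vehicle and 56.7% ± 0.615 after TGFβ1, and 72.2% ± 1.57 and 69.6% ± 1.12 in the S134A-GR line. PDGFD was the smallest share in both groups under TGFβ1, at 3.10% ± 0.277 in the wt-GR line and 1.21% ± 0.0934 in the S134A-GR line. It was also the smallest in the S134A-GR line under vehicle, at 2.42% ± 0.117. These shares are descriptions without a test.

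**Figure D3:**
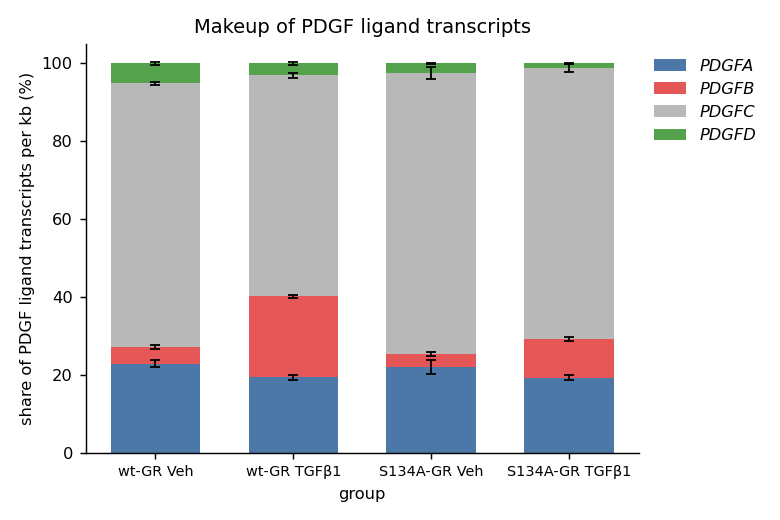
Share of each ligand gene, in percent of the summed normalized counts per kb of the 4 PDGF ligand genes, in the 4 groups, as stacked means of 3 replicates with a bar for the SD of each share. The PDGFB segment grows from 4.36% to 20.8% in the wt-GR line and from 3.39% to 9.99% in the S134A-GR line.

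PDGFRB, the receptor for PDGFB and PDGFD, was the only member called for the difference between the responses to TGFβ1 in the main limma fit. The gene lies on chromosome 5 (chr5:150113839-150155872, minus strand). Its replicates had 2182, 2135 and 2111 normalized counts in the wt-GR line under vehicle and 3940.4, 3717 and 4006 under TGFβ1. For the S134A-GR line the values were 1844, 1952 and 1939 under vehicle and 2179, 2277 and 2041 under TGFβ1. The treated wt-GR libraries stood far above the other 9, which all lay between 1844 and 2277. PDGFRB rose 1.81-fold in the wt-GR line (log2 fold change 0.86, standard error 0.0496, adjusted p = 1.84e-08 by limma) and 1.13-fold in the S134A-GR line (log2 fold change 0.18, adjusted p = 0.0213). The difference between the responses was −0.68 (95% interval −0.83 to −0.53, adjusted p = 0.000909 by limma), and it passed the threshold in each of the 21 alternatives run for it.

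Between the lines PDGFRB was lower in the S134A-GR line by a log2 fold change of −0.16 under vehicle (adjusted p = 0.0124 by limma) and −0.84 under TGFβ1 (adjusted p = 8.47e-09). The small difference under vehicle missed the threshold without replicate 1 of the S134A-GR line under vehicle (adjusted p = 0.059, range 0.00734 to 0.059 over the alternatives). The rise in the S134A-GR line missed it without replicate 1 of the vehicle group (adjusted p = 0.0967), without replicate 1 (0.0544) or 2 (0.0921) of the TGFβ1 group and with only these groups in the fit (0.0662), in a range of 0.00754 to 0.0967 over the alternatives.

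PDGFRA, the receptor for PDGFA and PDGFC, was close to the limit of detection, with 165 reads in the 12 libraries together. It is encoded on chromosome 4 (chr4:54229280-54298245, plus strand), where the annotation also holds a coding gene on the same strand that shares its exon bases. Its replicates had 9.78, 16.9 and 17.9 normalized counts in the wt-GR line under vehicle and 31.1, 17.6 and 30.6 under TGFβ1. In the S134A-GR line they had 1.89, 5.07 and 8.91 under vehicle and 3.80, 15.2 and 5.72 under TGFβ1, where 1.89 stands for 2 reads. S134A-GR libraries were below wt-GR libraries of the same treatment, and the treatments overlapped within each line. The log2 fold change between the lines was −1.46 under vehicle (interval −2.60 to −0.33, adjusted p = 0.0316 by limma) and −1.72 under TGFβ1 (interval −2.86 to −0.59, adjusted p = 0.0145). With TGFβ1 the values were 0.79 in the wt-GR line and 0.53 in the S134A-GR line, and neither passed (adjusted p = 0.345 and 0.564 by limma). Over the alternatives they ranged from 0.45 to 1.05 and from 0.03 to 0.95, and none passed.

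The calls of PDGFRA between the lines rest on few reads, and the log2 fold change ranged from −1.88 to −0.54 under vehicle and from −2.23 to −0.82 under TGFβ1 over the alternatives. Under vehicle the call was lost without replicate 2 (adjusted p = 0.0879) or 3 (0.0864) of the wt-GR line, without replicate 1 (0.149) or 2 (0.0553) of the S134A-GR line and with only these groups in the fit (0.0512), in a range of 0.0137 to 0.149 over the alternatives. Under TGFβ1 it was lost without replicate 1 (0.0518) or 3 (0.0511) of the wt-GR line and without replicate 1 of the S134A-GR line (0.0635), in a range of 0.00359 to 0.0635.

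VEGFA, the main ligand of endothelial VEGF receptors, was the member with the highest level, and the S134A-GR line was about as far below the wt-GR line under TGFβ1 as under vehicle. Its locus is on chromosome 6 (chr6:43770184-43786487, plus strand), and a long noncoding gene on the opposite strand shares exon bases with it. Its replicates had 18219.9, 20098 and 20310.4 normalized counts in the wt-GR line under vehicle and 26163, 23755 and 25879 under TGFβ1. The S134A-GR replicates had 9636, 9930.3 and 10084 under vehicle and 10681, 13785 and 13642 under TGFβ1. Each treated library was above the vehicle libraries of its line, and even the treated S134A-GR libraries stayed below the wt-GR libraries under vehicle. The log2 fold change between the lines was −0.98 (standard error 0.0793, adjusted p = 1.71e-07 by limma) with vehicle. With TGFβ1 the wt-GR mean was 1.99-fold that of the S134A-GR line (interval −1.17 to −0.83 on the log2 scale, adjusted p = 1.51e-07 by limma), at the fold cutoff of 1, and the log2 fold change ranged from −1.06 to −0.88 over the alternatives.

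With TGFβ1 VEGFA rose by a log2 fold change of 0.37 in the wt-GR line (adjusted p = 0.00388 by limma) and 0.35 in the S134A-GR line (adjusted p = 0.00609), and the difference between the responses had an interval of −0.26 to 0.22. With only the groups compared in the fit, the rise in the S134A-GR line missed the threshold (adjusted p = 0.0743, range 2.8e-05 to 0.0743 over the alternatives). Per kb, VEGFA made up 59.0% ± 0.683 (SD, n = 3) of the summed VEGFA, VEGFB and VEGFC levels in the wt-GR line under vehicle and 42.8% ± 1.11 in the S134A-GR line. Under TGFβ1 the replicates had shares of 61.1%, 59.0% and 61.1% in the wt-GR line and a mean of 45.5% ± 2.57 in the S134A-GR line.

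VEGFB was called lower in the S134A-GR line under TGFβ1 and was not called between the lines under vehicle. The gene lies on chromosome 11 (chr11:64234584-64239264, plus strand). Its replicates had 3860.0, 3965 and 4588 normalized counts in the wt-GR line under vehicle and 4816, 4727 and 4734 under TGFβ1. S134A-GR libraries had 4085, 3702 and 3640.1 under vehicle and 3578, 3963 and 3892 under TGFβ1. The treated wt-GR libraries were above all others, while the treatments overlapped in the S134A-GR line and the lines overlapped under vehicle. The log2 fold change between the lines was −0.32 under TGFβ1 (adjusted p = 0.000807 by limma) and −0.12 under vehicle (adjusted p = 0.147). The value under vehicle ranged from −0.17 to −0.04 over the alternatives and passed in none. With TGFβ1 VEGFB rose by 0.21 in the wt-GR line (adjusted p = 0.035 by limma), and in the S134A-GR line the value was 0.00 with an interval of −0.14 to 0.14. The difference between the responses missed the threshold (−0.20, adjusted p = 0.516 by limma).

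The rise of VEGFB in the wt-GR line was lost without replicate 1 (adjusted p = 0.133 by limma) or 2 (0.132) of the vehicle group. It was lost as well without replicate 1 (0.102), 2 (0.0757) or 3 (0.0802) of the TGFβ1 group. Quantile normalization (0.0646), the replicate number as a block (0.051) and a fit of only these groups (0.0791) also lost it. The adjusted p ranged from 0.00214 to 0.133 over the alternatives.

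VEGFC, the lymphatic growth factor gene, rose with TGFβ1 to a like degree in the lines. It is encoded on chromosome 4 (chr4:176683538-176792922, minus strand). Its replicates had 3234, 3509 and 3248 normalized counts in the wt-GR line under vehicle and 4389, 4422 and 4403 under TGFβ1. Those of the S134A-GR line had 3387, 3451 and 3677 under vehicle and 4544, 4759.6 and 4751 under TGFβ1. The treated libraries were above the vehicle libraries in each line, and the lines overlapped under vehicle but not under TGFβ1. VEGFC rose by a log2 fold change of 0.40 in the wt-GR line (adjusted p = 1.18e-05 by limma) and 0.42 in the S134A-GR line (adjusted p = 1.01e-05), with an interval of −0.12 to 0.15 for the difference. Between the lines the values were 0.07 under vehicle and 0.09 under TGFβ1 (adjusted p = 0.182 and 0.114 by limma). With quantile normalization both passed (adjusted p = 0.0289 and 0.031), in ranges of 0.0289 to 0.54 and 0.031 to 0.25 over the alternatives.

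Promoter windows are shown for members that rose with TGFβ1 to different degrees. RefSeq windows (GRCh38.p14) from 250 bases before to 50 after a start site matched 6 of the 9 members, with 10 windows in all. PDGFB, PDGFC and VEGFA had no entry in the table used. The motifs searched on both strands were CAGAC (the SMAD box), TGACTCA (the AP-1 site) and ACGTG (the core of a hypoxia response element), and a palindromic glucocorticoid response element with a spacer of 3 bases was searched as well. The SMAD box was found in the windows of PDGFRB and VEGFB, in 1 of the 2 windows of PDGFRA and in 1 of the 4 windows of PDGFA, and in neither VEGFC nor PDGFD. Of 35116 promoter windows of this length, 45.3% hold it, so its presence is common. The AP-1 site, which 4.95% of all windows hold, and the hypoxia core, which 21.4% hold, were in none of the 10 windows, and neither was the glucocorticoid element, which 1 of the 35116 windows holds. A match is a description of letters and no site of binding. The 250 bases before the start are printed 5′ to 3′ on the gene's strand, with SMAD boxes in capitals (GTCTG is the box on the other strand). They lie at chr5:150155846-150156095 (minus strand) for PDGFRB, chr7:520701-520950 (minus) for the most upstream window of PDGFA, chr11:64234334-64234583 (plus) for VEGFB and chr4:176792923-176793172 (minus) for VEGFC. The start sites are those of RefSeq, and some windows overlap the gene's own exons in GENCODE v44. Of the 250 bases, 27 do so for PDGFRB and 0 for the printed stretches of PDGFA, VEGFB and VEGFC. For PDGFD, which is not printed, 232 do.
PDGFRB: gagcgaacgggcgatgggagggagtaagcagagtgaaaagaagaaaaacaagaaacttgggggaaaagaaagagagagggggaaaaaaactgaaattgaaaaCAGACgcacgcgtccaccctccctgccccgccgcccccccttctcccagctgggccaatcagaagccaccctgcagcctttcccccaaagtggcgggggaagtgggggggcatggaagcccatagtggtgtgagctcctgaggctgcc
PDGFA: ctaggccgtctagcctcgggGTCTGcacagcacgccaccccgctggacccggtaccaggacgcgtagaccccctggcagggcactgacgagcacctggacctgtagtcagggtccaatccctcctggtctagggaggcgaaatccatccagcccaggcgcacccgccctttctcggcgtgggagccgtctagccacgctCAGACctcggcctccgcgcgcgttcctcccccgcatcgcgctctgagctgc
VEGFB: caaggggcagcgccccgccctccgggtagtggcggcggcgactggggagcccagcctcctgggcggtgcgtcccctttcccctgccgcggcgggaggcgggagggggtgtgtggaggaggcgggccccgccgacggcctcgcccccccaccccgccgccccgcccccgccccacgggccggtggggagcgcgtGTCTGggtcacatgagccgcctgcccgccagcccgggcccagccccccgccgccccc
VEGFC: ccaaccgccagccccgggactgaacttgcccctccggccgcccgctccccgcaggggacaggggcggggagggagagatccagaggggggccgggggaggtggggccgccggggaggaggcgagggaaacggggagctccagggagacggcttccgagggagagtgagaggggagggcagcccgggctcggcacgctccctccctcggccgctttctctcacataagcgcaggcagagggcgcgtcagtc
The box starts 148 bases before the start site in PDGFRB and 57 in VEGFB, and the pair in PDGFA starts 230 and 51 bases before it.

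The counts of the lists below are read against all genes tested, of which 25.0% were called higher and 26.5% lower in the S134A-GR line under vehicle and 23.1% higher and 25.7% lower under TGFβ1, with medians of 0.02 and 0.01. With TGFβ1, 11.2% rose and 9.82% fell in the wt-GR line and 10.0% rose and 8.69% fell in the S134A-GR line, with medians of 0.00 and −0.01. The lists, like the members, were chosen with earlier results of these data known, so their counts beside these shares are descriptions only. Other ligands and receptors of the family differed widely in level. Of 8 genes, 2 were higher and 1 was lower in the S134A-GR line under vehicle, and 2 were higher and 2 lower under TGFβ1. With TGFβ1, 2 rose and 2 fell in the wt-GR line, and 2 rose and 1 fell in the S134A-GR line. Their median log2 fold changes were 0.06 and −0.03 between the lines, and −0.25 and −0.19 with TGFβ1. NRP1, a co-receptor of VEGFA, had the highest level per kb. It had 45720.4 ± 3966 normalized counts (SD, n = 3) in the wt-GR line under vehicle, was higher in the S134A-GR line (0.38 and 0.44) and fell with TGFβ1 in both lines (−0.26 and −0.20). NRP2, a co-receptor of VEGFC, rose from 2343 ± 202 to 7589.6 ± 162 normalized counts in the wt-GR line (log2 fold change 1.70) and by 1.45 in the S134A-GR line. PGF, a ligand of FLT1, had 4204 ± 175 in the wt-GR line and 1760.3 ± 21.6 in the S134A-GR line under vehicle (log2 fold change −1.25, and −1.40 under TGFβ1). The VEGF receptors themselves were low in the wt-GR line under vehicle, KDR at 76.2 ± 22.0, FLT4 at 9.61 ± 5.58 and FLT1 at 4.60 ± 3.36 normalized counts.

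The next list holds proteases that cut PDGF and VEGF precursors and partners of theirs. Of 10 genes, 1 was higher and 6 were lower in the S134A-GR line under vehicle, where 26.5% of all genes were lower, and 7 were lower under TGFβ1, where 25.7% were. With TGFβ1, 2 rose in the wt-GR line, and 2 rose and 2 fell in the S134A-GR line. The median log2 fold changes were −0.27 (vehicle) and −0.33 (TGFβ1) between the lines, and −0.09 (wt-GR) and −0.14 (S134A-GR) with TGFβ1. FURIN, which cuts PDGFA, PDGFB and VEGFC precursors, went up from 17994 ± 189 to 40914 ± 1351 normalized counts (mean and SD) in the wt-GR line (log2 fold change 1.18) and from 15416 ± 297 to 29092 ± 1139 in the S134A-GR line (0.92). PLAU, the urokinase that can activate PDGFD, rose from 67744 ± 2921 to 147534 ± 4055 in the wt-GR line (1.12) and from 86655 ± 1355 to 129991 ± 4894 in the S134A-GR line (0.58). The difference in response, S134A-GR minus wt-GR, was called for both, at −0.27 for FURIN (adjusted p = 0.0351 by limma) and −0.54 for PLAU (adjusted p = 0.000909). ST14, the matriptase gene, was lower in the S134A-GR line under vehicle (−0.87) and under TGFβ1 (−1.02). A noncoding gene on the opposite strand shares exon bases with PLAU.

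Adaptors and effectors bind activated receptors and pass the signal on. Of 25 genes, 4 were higher and 18 lower in the S134A-GR line under vehicle, against 26.5% of all genes lower, with a median log2 fold change of −0.27, and 4 were higher and 16 lower under TGFβ1, against 25.7% lower, with a median of −0.23. With TGFβ1, 6 rose and 1 fell in the wt-GR line, and 4 rose and 1 fell in the S134A-GR line. SH2D2A, the gene of an adaptor that binds KDR, went up from 527 ± 30.0 to 1472 ± 87.9 normalized counts (mean and SD) in the wt-GR line (1.48) and by 1.52 in the S134A-GR line. SHC1 had the highest level per kb of the list, at 36858 ± 444 normalized counts in the wt-GR line under vehicle. SRC, named after its values were seen, had 7726 ± 126 and 9741 ± 409 normalized counts in the wt-GR line and 12633 ± 177 and 12869 ± 254 in the S134A-GR line, with a difference in response of −0.31 (adjusted p = 0.0163 by limma).

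Of the genes that limit receptor signals (ubiquitin ligases, phosphatases and SOCS proteins among them), 11 were in the data. Under vehicle 1 was higher and 7 were lower in the S134A-GR line, and under TGFβ1 1 was higher and 6 were lower. With TGFβ1, 1 rose and 5 fell in the wt-GR line, and 4 rose and 5 fell in the S134A-GR line. The median log2 fold changes were −0.32 and −0.26 between the lines and −0.05 and −0.09 with TGFβ1. PTPN1, which dephosphorylates PDGF receptors and had the highest mean level per kb of the list over the 12 libraries, though not within the wt-GR line, fell by 0.22 in the wt-GR line and by 0.21 in the S134A-GR line on the log2 scale.

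Of the hypoxia factor pathway, which is known to control VEGFA, 9 genes were tested. Under vehicle 2 were higher and 6 lower in the S134A-GR line, and under TGFβ1 1 was higher and 5 were lower. With TGFβ1, 1 rose and 1 fell in the wt-GR line, and 3 rose and 1 fell in the S134A-GR line. The median log2 fold changes were −0.24 (vehicle) and −0.16 (TGFβ1) between the lines, and 0.05 (wt-GR) and 0.05 (S134A-GR) with TGFβ1. EPAS1, which encodes HIF-2α, had 10761 ± 406 and 17865 ± 106 normalized counts (SD, n = 3) in the wt-GR line under vehicle and TGFβ1, and 3242 ± 48.0 and 4183 ± 322 in the S134A-GR line. It was lower in the S134A-GR line by a log2 fold change of −1.73 under vehicle and −2.10 under TGFβ1. Its rise with TGFβ1 was 0.73 in the wt-GR line and 0.36 in the S134A-GR line, a difference of −0.37 (adjusted p = 0.0343 by limma). ARNT2, a partner of HIF proteins, was lower in the S134A-GR line by −1.42 and −1.71, and fell with TGFβ1 by 0.58 and 0.87 on the log2 scale. HIF1A had the highest level per kb of the list and was lower in the S134A-GR line by −0.34 and −0.16. EGLN2 passed at 1.93 under vehicle, but it had 2.30 ± 1.69 against 10.7 ± 2.03 normalized counts and shares exons with a readthrough gene in the annotation, so its reads are uncertain. In the annotation noncoding genes share exon bases with HIF1A, ARNT2, NRP1, NRP2, PTPN1, CSPG4 and VIM, and PYGO2 shares some with SHC1.

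Markers of other cell types that use these factors were read as well, since they describe cells that a culture of 1 line is not meant to hold. Of 9 endothelial markers, 8 were in the data, and 5 were lower in the S134A-GR line under vehicle and 6 under TGFβ1. With TGFβ1, 3 rose and 2 fell in the wt-GR line, and 2 rose and 3 fell in the S134A-GR line. The median log2 fold changes were −0.32 (vehicle) and −0.71 (TGFβ1) between the lines, and 0.12 (wt-GR) and 0.01 (S134A-GR) with TGFβ1. Their sum was 15000.2 to 15038 normalized counts in the wt-GR libraries under vehicle and 16828 to 17626 under TGFβ1, against 8745 to 8864 and 8522 to 9398 in S134A-GR libraries. CDH5, the defining VE-cadherin gene, had 187 ± 31.1 normalized counts (SD, n = 3) in the wt-GR line and 19.0 ± 7.61 in the S134A-GR line under vehicle (−3.28, and −2.89 under TGFβ1). TIE1 (−1.46 and −1.52) and ESAM (−1.49 and −1.60) were lower as well. ROBO4, the largest part of the sum, differed less (−0.40 and −0.55), as did PECAM1 (−0.25 and −0.34). TEK rose with TGFβ1 (1.70 in the wt-GR line and 1.66 in the S134A-GR line), VWF fell (−0.85 and −1.01), and in the S134A-GR line CLDN5 (−1.46, from 11.7 ± 2.93 to 3.57 ± 0.627 normalized counts) fell. Its value in the wt-GR line was −0.74, and the difference between the responses missed the threshold (−0.72, adjusted p = 0.703 by limma). Whether these transcripts come from the line itself was not tested.

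Of 9 pericyte and fibroblast markers, 1 was higher and 4 were lower in the S134A-GR line under vehicle, and 2 were higher and 3 lower under TGFβ1, while 2 fell with TGFβ1 in each line. The median log2 fold changes were −0.51 (vehicle) and −0.75 (TGFβ1) between the lines, and −0.16 (wt-GR) and 0.00 (S134A-GR) with TGFβ1. Their sum ranged over 5579.6 to 6625 normalized counts in the wt-GR line and 3131 to 3389.8 in S134A-GR libraries under vehicle, and 5251 to 5377 and 2638 to 2778 under TGFβ1. CSPG4, also known as NG2, was the largest part of the sum in the wt-GR line at 3591 ± 408 under vehicle (SD, n = 3) and was lower in the S134A-GR line (−1.51 and −1.57), as was DES (−1.24 and −1.50), with which a noncoding gene shares exon bases. ACTA2 was higher in the S134A-GR line under vehicle (0.83) and under TGFβ1 (1.30), and it shares exon bases with FAS, so its reads are uncertain. The fibroblast gene LUM averaged 3.20 normalized counts in the wt-GR line under vehicle, about the level of 3 reads. It had 0 reads in every S134A-GR library. LUM is 1 of the 4 markers called lower under vehicle (log2 fold change −2.04, adjusted p = 0.0238 by limma). Its 12 reads all lie in wt-GR libraries, so it passed the read filter only through the line where it is higher. The call of LUM therefore cannot support that count. COL3A1 had 0.584 ± 0.525 in the wt-GR line, below the level of 3 reads, and 11.1 ± 6.77 in the S134A-GR line under TGFβ1. With 66 reads in the 12 libraries together, its log2 fold change of 2.79 is uncertain in size.

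Of 5 platelet and megakaryocyte markers 3 were in the data, and 1 was higher and 1 lower in the S134A-GR line under each treatment. Between the lines the median log2 fold change was 0.76 under vehicle and 0.50 under TGFβ1. Their sum was 114 to 150.1 normalized counts in the wt-GR libraries under vehicle and 196 to 211 in the S134A-GR libraries, and 92.3 to 120.0 and 120.5 to 155 under TGFβ1. GP1BA, which shares exon bases with CHRNE, was the largest part of it, was higher in the S134A-GR line (0.91 and 0.66) and fell there with TGFβ1 (−0.58). PF4 had 17.7 ± 6.68 normalized counts (SD, n = 3) in the wt-GR line and 3.81 ± 3.32 in the S134A-GR line under vehicle (log2 fold change −2.34, and −2.49 under TGFβ1), but a coding gene shares exon bases with it, so its reads are uncertain. Of the 8 markers of the line itself 7 were in the data. Between the lines 1 was higher and 1 lower under each treatment (median 0.02 under vehicle and −0.08 under TGFβ1), and with TGFβ1 3 rose and 1 fell in each line. ESR1 rose in the wt-GR line from 0.702 to 6.02 normalized counts (2.23), still only a few reads. EPCAM was lower in the S134A-GR line (−1.44 and −1.58), while VIM did not pass between the lines.

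The genes next to the members on the chromosome were read for members past the fold cutoff between the lines, with the 5 tested genes on each side. Around PDGFD, in a stretch of 3.19 Mb, 7 of 10 neighbours were lower in the S134A-GR line under vehicle and 1 was higher, where 26.5% of all genes were lower and 25.0% higher, with a median log2 fold change of −0.67. Among them were MMP1 (−1.71), DCUN1D5 (−0.78), CASP4 (−0.77) and CASP1 (−3.09), and MMP3 was higher (0.65). Under TGFβ1, 6 were lower and 1 was higher, where 25.7% of all genes were lower and 23.1% higher, with a median of −0.68. Around PDGFB, 4 neighbours were lower and 2 higher under vehicle, with a median of −0.09, and under TGFβ1 4 were lower, with a median of −0.27. Around VEGFA, 3 were lower and 1 was higher under vehicle, with a median of 0.01, and under TGFβ1 4 were lower and 1 was higher, with a median of −0.07. Around PDGFRA, 1 was lower and 4 were higher under vehicle, with a median of 0.57, and under TGFβ1 1 was lower and 3 were higher, with a median of 0.23.

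**Figure D4:**
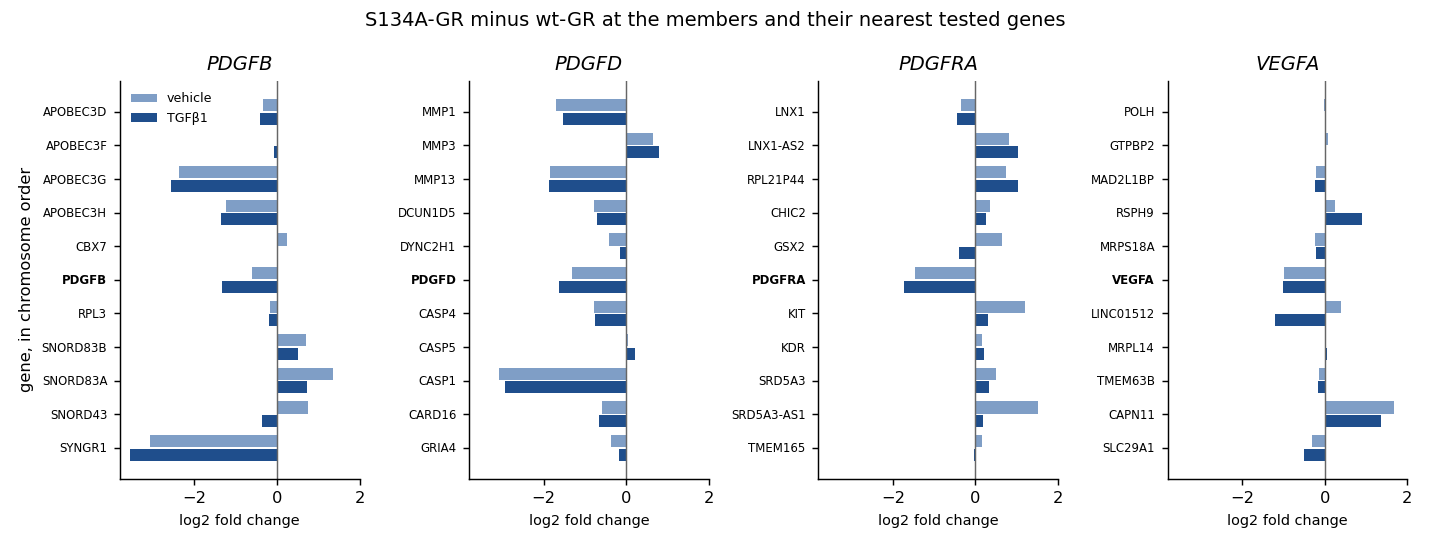
Log2 fold changes of S134A-GR against wt-GR by limma for PDGFB, PDGFD, PDGFRA and VEGFA (in bold) and the 5 nearest tested genes on each side, in chromosome order from top to bottom, with light bars for vehicle and dark bars for TGFβ1. Under vehicle 7 of 10 neighbours were called lower around PDGFD, 4 around PDGFB, 3 around VEGFA and 1 around PDGFRA, against 26.5% of all genes.

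Among 13280 genes with a mean of at least 50 normalized counts, those with the smallest root mean square difference over the 12 centred log2 values were named for each member past the fold cutoff between the lines. For PDGFB the nearest was PMEPA1, a feedback regulator and target of TGFβ1 signaling, with a difference of 0.29, followed by COL4A1 (0.34) and UCN2 (0.36). These genes were picked for their likeness, so their fold changes add no evidence on the member. For PDGFD the nearest were SLC1A4 (0.09), CSPG4 (0.12) and ANGPTL2 (0.12). For VEGFA they were HBEGF (0.10), the gene of an EGF receptor ligand, EVA1A (0.12) and ATP13A2 (0.12). For PDGFRA, where reads are few, they were SYT12 (0.47), ESAM (0.57) and CLDN4 (0.58), among 13281 genes.

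These values come from 12 libraries of 1 cell line, 1 clone for each form of the receptor and 1 time of 6 h, so other clones and later times were not measured. Transcript levels do not give the secretion, processing or dimer makeup of the ligands, nor the amount or activity of the receptors, and no protein was measured here. Reads of genes that share exon bases cannot be told apart, and transcript forms of VEGFA were summed into 1 value. PDGFRA has too few reads for a precise fold change. Effects of the ligands on endothelial or stromal cells were not tested.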

How the data were processed

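The 12 RNA-seq libraries came from the wt-GR and the S134A-GR line. The authors used Trimmomatic, HISAT2 (hg38) and featureCounts, and deposited a signal: counts divided by size factors of DESeq2 1.22.2, with 1 value per symbol and library. Annotation, strand setting and the other versions are not given in the sources used here. Reads were recovered by dividing each library by its smallest value, and 100% came out whole within 0.01 reads. Their totals exceed the sequencing depth that the authors state, so the unit called a read here may not be theirs.

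Genes with at least 10 reads over the 12 libraries (18579 of 19907) were fitted as log2 (normalized count + 1), a scale that understates changes of low genes, with limma 3.58.1 in R 4.3.3. The model held 4 group means and a trended prior, with Benjamini-Hochberg adjustment. On the recovered reads edgeR 4.0.16 called 78 genes and DESeq2 1.42.0 called 211 for the difference in response, against 77 by limma. Other alternatives were pseudocounts of 0.5 and 16, other filters, TMM scaling, quantile normalization, a replicate block, only the groups compared, a fold cutoff of 1.5 and each library left out. An exact permutation test of 3 against 3 libraries cannot go below 0.1. In simulated data with 100 genes changed 2-fold and 100 changed 4-fold, limma called 92% and 99%, with 13 false calls among the unchanged genes. The changed genes had a mean of at least 50 normalized counts, and all other genes were left equal. These rates therefore do not cover genes as low as PDGFRA, nor comparisons between the lines, where 51.5% of genes were called under vehicle.

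The members and gene lists were chosen with earlier results of these data known. Genes of the lists were named where a call had a log2 fold change of 1 or more in either direction in any comparison, or had the highest mean level per kb over the 12 libraries in their list. KDR, FLT1, FLT4, ERBB2, SRC, PIK3R2, ROBO4 and PECAM1 were named outside this rule, after values were seen. Positions and lengths come from GENCODE v44, promoter sequences from RefSeq. Floors of 3 reads cover counting error only.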

Additional observations from a re-analysis of the deposited data

Results flagged for a closer look

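Of 150 genes of the members, lists, label checks, neighbours and nearest patterns, 6 had a tested difference between the responses of the lines to TGFβ1, against 77 of 18579 genes tested (0.414%). The pool holds genes picked from these values as nearest patterns, so its count cannot be read as a share. PDGFRB, the only member among them, rose in wt-GR cells by a log2 value of 0.86 and in S134A-GR cells by 0.18, a difference of −0.68 (adjusted p = 0.000909 by limma). The others, each also with the larger value in wt-GR cells, were PMEPA1 (−0.72, a label check that is also the nearest pattern of PDGFB), PLAU (−0.54), EPAS1 (−0.37), SRC (−0.31) and FURIN (−0.27). For PIK3R2 all treated libraries were above the vehicle libraries in wt-GR cells (0.11, adjusted p = 0.0381 by limma) and below them in S134A-GR cells, where the value of −0.05 was not called (adjusted p = 0.33). Its difference of −0.16 missed the threshold (adjusted p = 0.282 by limma).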

How the results depend on the processing

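Over 22 alternative settings, the 45 log2 fold changes of the members (9 genes in 5 comparisons) gave 980 values. Of these, 950 kept their status as called or not, 23 lost a call, 7 gained one and 0 reversed a call. The log2 fold change turned its sign in 18 of the 980. Losses were those of PDGFRA and PDGFRB between the lines, PDGFC under vehicle, and the small rises of PDGFRB and VEGFA in S134A-GR and VEGFB in wt-GR cells. Gains were those of the PDGFB difference in response and of VEGFC between the lines. With a pseudocount of 16, 940 and 805 genes passed the fold cutoff between the lines under vehicle and TGFβ1, 223 and 155 with TGFβ1 in wt-GR and S134A-GR cells and 19 for the difference in response, with 1 and 2 members between the lines. With a cutoff of 1.5 they were 1016, 936, 231, 155 and 7, with 0 and 2 members. With only the groups compared, 1 member passed the fold cutoff under vehicle. DESeq2 called 211 genes for the difference in response, 22 of them at the fold cutoff, and 2 members, and edgeR's quasi-likelihood test also called 2 members for it. Causes of these changes were not tested.

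Deviations of same-numbered libraries had a mean r of 0.000251 (−0.105 to 0.128 over 18 pairs and 13281 genes). Those of differently numbered libraries had −3.63e-05 (−0.154 to 0.183 over 36 pairs), and 4 of 12 libraries correlated best with their own number. The deviations were taken from means of 3 libraries, so this check cannot show whether equal numbers mark a shared batch. With a replicate block 2 members were called for the difference in response, with PDGFB at −0.73 (adjusted p = 0.0347 by limma, range 4.89e-05 to 0.188), and the rise of VEGFB in wt-GR cells missed the threshold (adjusted p = 0.051, range 0.00214 to 0.133).

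With each library left out in turn, genes called for the difference in response ranged from 22 to 166, against 77 with all, and from 3 to 15 at the fold cutoff. The count moved by over 1.5 times without replicate 2 (27) or 3 (166) of wt-GR cells under vehicle, replicate 1 (22), 2 (36) or 3 (35) of wt-GR cells under TGFβ1, replicate 1 (37), 2 (39) or 3 (38) of S134A-GR cells under vehicle and replicate 2 (51) or 3 (47) of S134A-GR cells under TGFβ1. Members called for it ranged from 1 to 2, and members at the fold cutoff between the lines from 1 to 3 under vehicle and 2 to 4 under TGFβ1. PDGFRA has 165 reads in all.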
